A study of Mus musculus with 32 samples.

Results

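The comparison set 8 libraries made from 0.5 ng of total RNA against 8 libraries made from 1 ng, 16 of the 32 libraries of a 3'Pool-seq input titration, with libraries paired by genotype and by the number in their label. Each input held 4 WT libraries and 4 GFAP-IL6 libraries. All came from frontal cortex of 3-month-old mice; the WT mice were C57BL/6, and the GFAP-IL6 mice were homozygous for an interleukin 6 transgene under control of the Gfap promoter, which is active in astrocytes, and serve as a model of neuroinflammation. The remaining 16 libraries, from 50 and 10 ng, served here only to give every gene a reference level. The labels do not say whether libraries with the same number came from the same mouse or the same RNA, so p-values measure the spread between these libraries, part of which may be technical. The question was what is lost between the 2 smallest inputs when the number of reads is nearly equal.

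Total RNA is mostly ribosomal, and only the small polyadenylated part can be captured by an oligo-dT primer. When little RNA enters reverse transcription, few copies of a rare transcript are present in the tube, and a copy that is not converted to cDNA cannot be recovered by PCR or by deeper sequencing. A transcript can then be missing from one library and abundant in the next, which is called dropout. Frontal cortex is rich in transcripts of excitatory neurons and mitochondria, while transcription factors, receptors and cytokines are typically rare.

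The primer is shown because it is the capture step that every count depends on. It carries a P7 flow-cell end, a sample index and a sequencing adapter, followed by a run of 25 T (capitals), then a base other than T and any base, which anchor it at the start of the poly(A) tail. Shown without these anchor bases, the primer with the first of the 12 indices reads
RT1: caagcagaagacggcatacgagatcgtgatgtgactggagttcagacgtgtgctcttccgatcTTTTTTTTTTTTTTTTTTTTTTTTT

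Total counts were close within pairs. They ranged from 261378 to 2800270 at 1 ng and from 295022 to 2722389 at 0.5 ng, with a ratio of 0.5 ng to 1 ng between 0.787 and 1.26 in the 8 pairs. Both libraries numbered 2 were shallow in each genotype, so depth followed the number rather than the input (difference in total between inputs, two-sided exact sign-flip permutation p = 0.617). The share of mitochondrial counts was 15.8% ± 2.9 (SD, n = 8) at 1 ng and 15.5% ± 2.7 at 0.5 ng, and about the same number of genes made up the upper 50% of counts (420.0 and 416.8 on average). Of 8 cortical markers, among them Snap25, Camk2a, Nrgn and Tbr1, 7 had counts in all 16 libraries, and Cux2 was at 0 in 2. Among striatal markers, Penk and Ppp1r1b had counts in all 16 libraries, Drd1 was at 0 in 3 and Adora2a in 13. The striatal receptor gene Drd2 was at 0 in all 16 libraries, and its reference level was 0 as well. In WT number 3, the choroid plexus marker Ttr reached 3079 CPM (a gene's count scaled to a common library total) at 1 ng. It reached 3110 CPM at 0.5 ng there and stayed at or under 229.6 CPM elsewhere. Folr1 and Kl, of the same tissue, were at 0 in 13 and 12 libraries.

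The 4 haemoglobin genes among the blood markers had lower means at 0.5 ng. Over 8 libraries each, the means at 1 and 0.5 ng were 131.1 and 71.4 CPM for Hba-a2 (log2 fold change -0.85 ± 0.26 SE), 116.4 and 71.8 CPM for Hba-a1, 82.1 and 51.5 CPM for Hbb-bt and 475.4 and 362.5 CPM for Hbb-bs. In the same order, the reference levels were 67.1, 82.1, 48.4 and 243.6 CPM. The means at 1 ng lay above these levels for all 4 genes, and the means at 0.5 ng lay nearer to them. None of the 4 genes passed the threshold (smallest adjusted p = 0.51, Benjamini-Hochberg adjusted over all genes in edgeR's quasi-likelihood test). The cause was not tested, and the labels do not say whether both inputs came from the same RNA. The summed level of the striatal, choroid plexus and blood markers spanned 811 to 4153 CPM at 1 ng and 691 to 3939 CPM at 0.5 ng, and its part in the results was not tested.

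Fewer genes were detected from 0.5 ng in every pair. With both libraries of a pair brought to the lower of their totals, 11634 ± 1161 genes (SD, n = 8) had at least 1 count at 1 ng and 10361 ± 1125 at 0.5 ng. The difference was -1273 ± 184 genes, negative in 8 of 8 pairs, with a range of -1651 in WT number 1 to -1026 in WT number 2 (two-sided exact sign-flip permutation p = 0.00781, the smallest that 8 pairs can give). Mean differences were -1312 genes in WT and -1233 in GFAP-IL6 (difference between genotypes, exact permutation p = 0.66). With all 16 libraries brought to 261378 counts and no pairing, 10350 ± 450 and 9344 ± 598 genes were found (exact permutation p = 0.0023, n = 8 per input).

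More reads recovered part of the missing genes at either input. Going from 261378 counts to its full total of 2722389, GFAP-IL6 number 4 gained 1467 genes at 0.5 ng, and the 1 ng library of the same number gained 2025 with 2800270 counts. The 0.5 ng library then held 11581 genes. This was below the 11810 genes of GFAP-IL6 number 1 at 1 ng, which had only 1387847 counts.

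**Figure D1:**
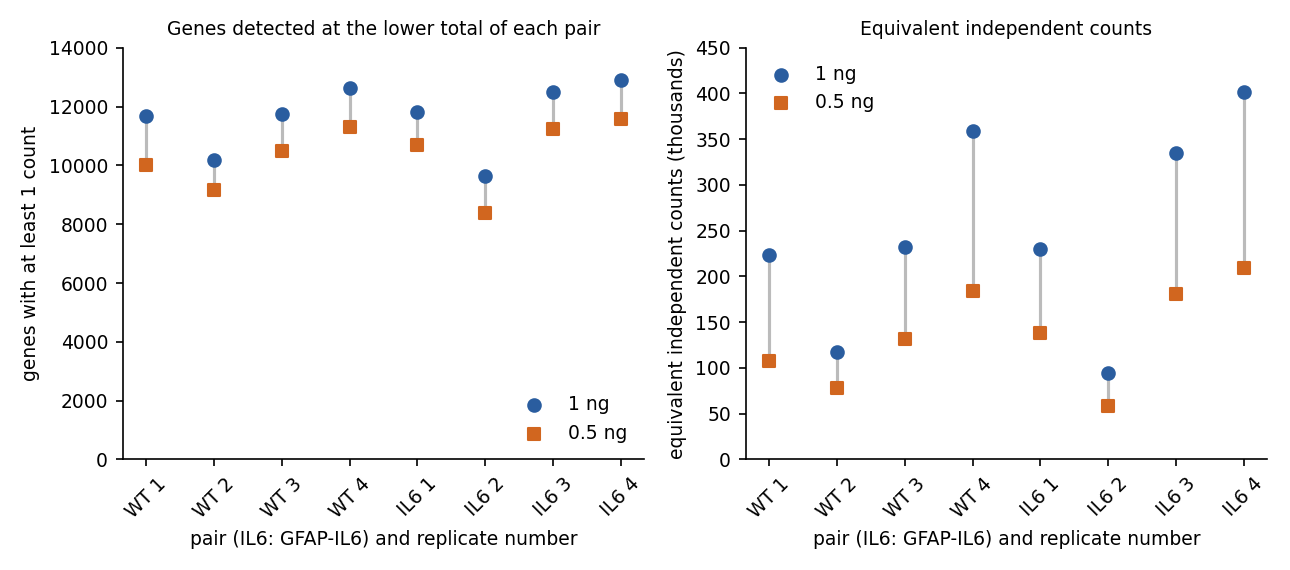
Left, genes with at least 1 count in each library with both libraries of a pair at the lower total of the pair; right, the number of independent counts, scaled as the axis states, at which counting error alone would leave as many genes at 0. Circles are 1 ng and squares 0.5 ng; the square lies below the circle in all 8 pairs of both panels.

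The loss can be expressed as a number of independent draws. From the reference levels of the 13478 genes at or above 1 CPM, the number of counts was computed at which counting error alone, that is, Poisson sampling, would leave as many of these genes at 0 as were observed. This number ran from 94670 to 401269 at 1 ng and from 58214 to 209337 at 0.5 ng. The ratio of 0.5 ng to 1 ng was 0.561 as a geometric mean and lay between 0.484 and 0.666 in the 8 pairs (two-sided exact sign-flip permutation p = 0.00781). In the deepest pairs it was 0.513 (WT number 4) and 0.522 (GFAP-IL6 number 4). The computed number was 7.53% to 22.3% of the counts at 0.5 ng and 14.7% to 36.2% at 1 ng, with the highest shares in the shallow libraries numbered 2. Computed within level classes, its median over pairs was between 209553 and 248446 at 1 ng and between 114965 and 155665 at 0.5 ng in the 5 classes from 1 to 50 CPM. From 50 to 100 CPM it was lower, 121301 at 1 ng and 101376 at 0.5 ng, but these medians rest on different pairs, 3 libraries at 1 ng and 7 at 0.5 ng, because the number has no value in a library with no gene of the class at 0. The measure was added after the data had been seen, and it treats the mean of 50 and 10 ng as the true level.

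Dropout was concentrated in genes of low and moderate level, and it was nearly absent above 100 CPM. Level classes were cut on the mean CPM over the 16 libraries of 50 and 10 ng, which were not part of the comparison. Over all 13478 genes from 1 CPM, 16.9% ± 7.25 (SD, n = 8) were at 0 at 1 ng and 25.2% ± 7.49 at 0.5 ng, higher in 8 of 8 pairs (exact sign-flip permutation p = 0.00781). In the class from 5 to 10 CPM, with 1736 genes, 22.2% ± 15.6 of genes (SD, n = 8) were at 0 at 1 ng and 40.4% ± 14.996 at 0.5 ng. This class had the largest difference, 18.3 percentage points. The class from 2 to 5 CPM followed with 46.6% and 62.1%, the class from 10 to 20 CPM with 8.48% and 20.1%, and the class from 1 to 2 CPM with 69.4% and 80.7%. From 20 to 50 CPM the shares were 1.54% and 5.73%. Each of these 5 classes was higher at 0.5 ng in 8 of 8 pairs (adjusted p = 0.0125, exact sign-flip permutation test with Benjamini-Hochberg adjustment over 8 classes).

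Between 50 and 100 CPM the shares were 0.0723% and 0.641%, higher at 0.5 ng in 7 of 8 pairs and equal in the other (adjusted p = 0.0208). That difference of 0.568 points fell to 0.267 points without GFAP-IL6 number 2, the shallowest pair. Of 1587 genes between 100 and 500 CPM, 3 were at 0 in any 0.5 ng library and none in any 1 ng library, and all 229 genes from 500 CPM had counts in all 16 libraries. Counting error at the lower totals would have left 15.9% of the 5 to 10 CPM class at 0 in GFAP-IL6 number 2, 7.91% in WT number 2 and at most 0.0492% in the other 6 pairs. In the 10 to 20 CPM class it would have left 2.86%, 0.772% and at most 6.14e-05%.

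The difference held in shallow and deep pairs alike. In GFAP-IL6 number 2, with 261378 counts, 48.7% of the 5 to 10 CPM class was at 0 at 1 ng and 65.4% at 0.5 ng. In GFAP-IL6 number 4, at 2722389 counts, the shares were 6.81% and 23.4%. The test rests on the pairs: without pairing, adjusted p was between 0.11 and 0.17 in the 6 classes up to 100 CPM (exact permutation test of 8 against 8 libraries). With all libraries at 261378 counts and still no pairing, the 7 classes up to 500 CPM differed (adjusted p between 0.00435 and 0.0048, exact permutation test); the differences were then 5.04 points from 1 to 2 CPM, 8.24 from 2 to 5 CPM, 14.2 from 5 to 10 CPM, 13.1 from 10 to 20 CPM, 6.46 from 20 to 50 CPM and 0.980 from 50 to 100 CPM. At that total the share of the 5 to 10 CPM class at 0 still ran from 30.9% to 48.9% among the 1 ng libraries and from 42.8% to 65.4% among the 0.5 ng libraries.

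**Figure D2:**
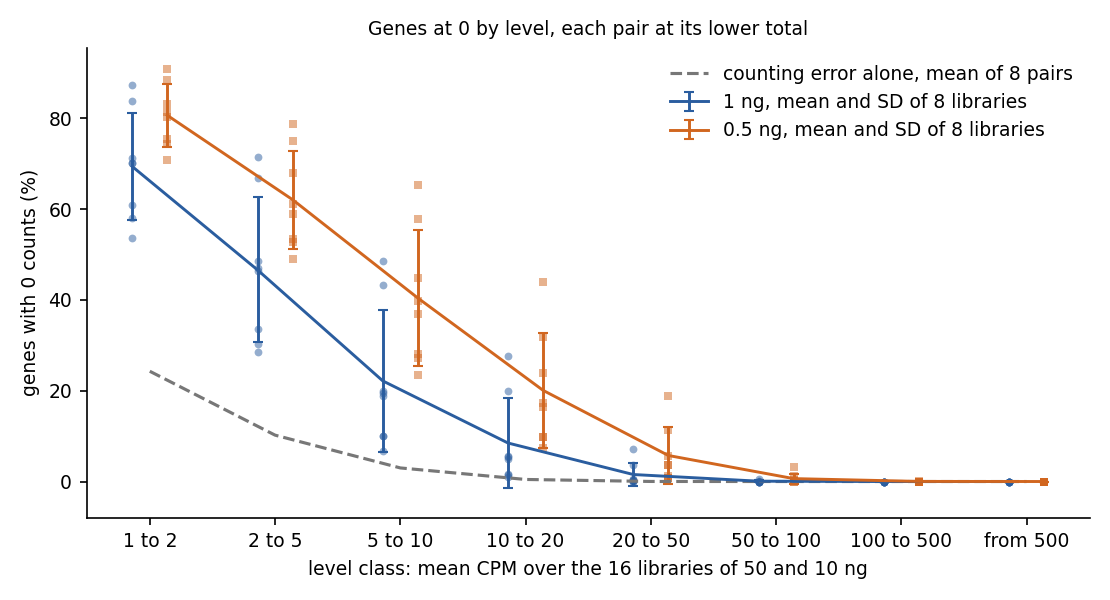
Percent of genes with 0 counts (vertical axis) by level class (horizontal axis, mean CPM over 50 and 10 ng), with each pair at its lower total. Points are the 8 libraries per input, lines join means with SD bars, and the dashed line is the share that counting error alone would give; the widest gap between inputs, 18.3 points, is in the 5 to 10 CPM class.

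Dropout also changed how many genes could be followed through all replicates. Of the 13478 genes from 1 CPM, 7688 (57.0%) had counts in all 8 libraries at 1 ng, 6102 (45.3%) at 0.5 ng and 5654 in all 16. In the class from 20 to 50 CPM, with 3051 genes, 2699 were found in all 8 libraries at 1 ng and 2015 at 0.5 ng. Between 10 and 20 CPM the numbers were 1100 and 509 of 2138 genes. A gene was at 0 in more libraries at 0.5 ng than at 1 ng in 5311 cases, in fewer in 1308 and in the same number in 6859. These counts used the deposited totals.

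The level classes took similar shares of the counts at both inputs. The share of each level class differed by at most 0.336 percentage points between inputs, for example 1.24% of counts at 1 ng and 1.24% at 0.5 ng for the 5 to 10 CPM class, and no class passed the test (smallest adjusted p = 0.625, exact sign-flip permutation test). The counts were thus spread over fewer genes. In the class from 2 to 5 CPM the median level of the genes that were found rose from 4.35 to 6.11 CPM in 8 of 8 pairs, against a reference median of 3.25 CPM, but the difference did not pass adjustment over 8 classes (adjusted p = 0.0625).

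The spread around the reference level was larger at 0.5 ng in every level class. Spread was taken as the median over genes of the absolute difference, on the log2(CPM + 1) scale, between a library and the mean of its genotype over 50 and 10 ng. In the class from 5 to 10 CPM it was 1.24 ± 0.55 (SD, n = 8) at 1 ng and 1.96 ± 0.56 at 0.5 ng. In the class from 20 to 50 CPM it was 0.56 and 0.83, from 50 to 100 CPM 0.39 and 0.55, and from 100 to 500 CPM 0.28 and 0.37. The 229 genes from 500 CPM reached 0.19 and 0.22.

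All 6 classes between 2 and 500 CPM were wider at 0.5 ng in 8 of 8 pairs (adjusted p = 0.0104, exact sign-flip permutation test), and the lowest and highest classes were wider in 7 of 8 (adjusted p = 0.0156). From 1 to 2 CPM the values, 1.19 and 1.25, were set by genes at 0, and that class no longer passed with all libraries at 261378 counts and no pairing (adjusted p = 0.62, exact permutation test). The difference from 2 to 5 CPM was then 0.10 (adjusted p = 0.0153, same test). Genes at 0 also weighed on the spread from 2 to 5 and from 5 to 10 CPM. At the lower total of each pair they made up 62.1% and 40.4% of these classes at 0.5 ng. Their part in the spread differences was not separated. A pseudocount of 0.1 raised the difference from 0.72 to 1.57 in the 5 to 10 CPM class, from 0.33 to 1.66 in the 2 to 5 CPM class and from 0.05 to 0.19 in the 1 to 2 CPM class, since it gives zeros more weight. It moved the other classes by under 0.05.

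**Figure D3:**
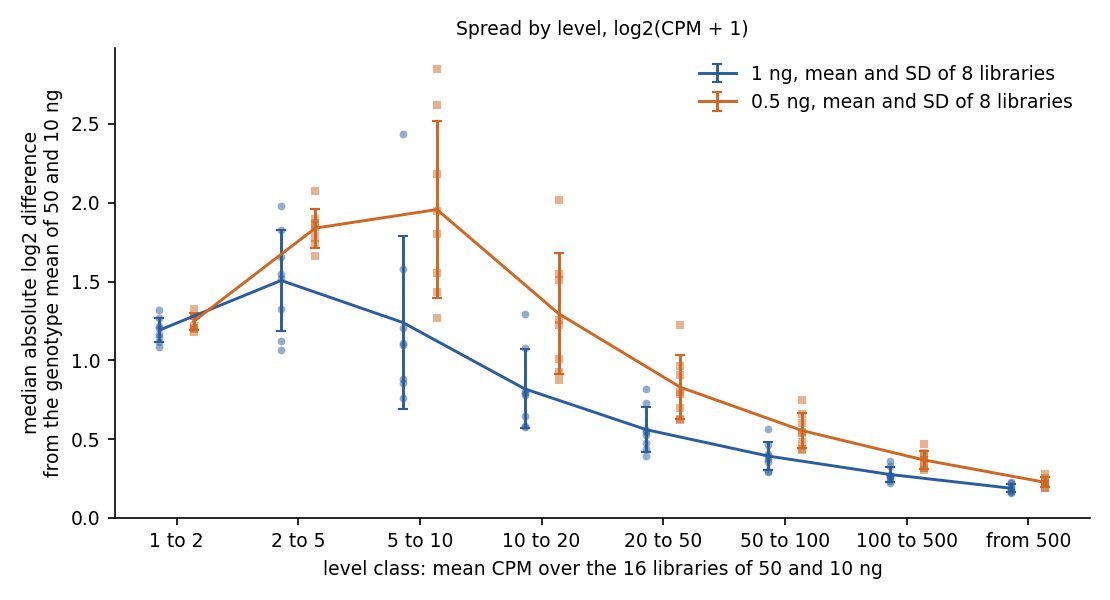
Median absolute log2 difference of a library from the mean of its genotype over 50 and 10 ng (vertical axis, log2(CPM + 1) scale) by level class (horizontal axis, CPM). Points are the 8 libraries per input and lines join means with SD bars; the 0.5 ng means lie above the 1 ng means in all 8 classes.

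Variation between libraries of the same genotype gave the same order. The biological coefficient of variation, the square root of edgeR's common dispersion, was 0.519 at 1 ng and 0.767 at 0.5 ng, a ratio of 1.48. After removal of counting error, the coefficient of variation (CV) of a gene in the 10 to 20 CPM class was 0.683 at 1 ng and 0.986 at 0.5 ng, beside 0.210 at 50 ng and 0.263 at 10 ng. In the class from 100 to 500 CPM the values were 0.224 and 0.311, beside 0.159 and 0.135. From 500 CPM they were 0.125 and 0.152, beside 0.148 and 0.105. These are descriptions with no test.

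Of the 1816 genes from 100 CPM, 1333 (73.4%) had a larger CV at 0.5 ng. Smc6, of the SMC5/6 complex that maintains chromosomes, had the largest rise. Its levels at 1 ng were 39.9, 62.8, 81.9 and 96.1 CPM in WT and 135.5, 114.8, 74.7 and 125.7 CPM in GFAP-IL6. At 0.5 ng they were 19.96, 329.4, 53.3 and 114.0 CPM in WT and 119.8, 139.0, 43.4 and 67.2 CPM in GFAP-IL6. The highest and the lowest level at 0.5 ng were both in WT, outside the range at 1 ng, while the means were 91.4 CPM at 1 ng and 110.8 CPM at 0.5 ng. Tsg101, an ESCRT-I subunit of the endosomal sorting pathway, spanned 91.5 to 139.2 CPM at 1 ng and 21.7 to 192.9 CPM at 0.5 ng. Large rises were also seen for Fam32a, with a CV within genotypes of 0.18 at 1 ng and 0.71 at 0.5 ng, and Aig1, with 0.19 and 0.68. For none of these 4 genes did the level pass the test between inputs (adjusted p = 0.997 for each, edgeR).

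At the top of the range, levels were similar. Among the 10 genes with the highest reference level were the mitochondrial ribosomal RNAs mt-Rnr2 and mt-Rnr1, the mitochondrial mRNAs mt-Nd1, mt-Cytb, mt-Nd4 and mt-Nd2, the nuclear noncoding RNA Malat1, the ferritin gene Fth1 and the noncoding transcript Yam1. For mt-Nd1, a subunit of respiratory complex I, the 8 libraries lay between 12870 and 16326 CPM (median 14451) at 1 ng and between 12860 and 15977 CPM (median 14429) at 0.5 ng. The 2 ranges overlap almost fully, and both lie below the reference level of 18591 CPM. The log2 fold changes of these 9 genes were between -0.34 (Yam1, SE 0.40) and 0.11 (mt-Cytb, SE 0.06), and none passed (smallest adjusted p = 0.95, edgeR). The CV of mt-Nd1 within genotypes was 0.0885 at 1 ng and 0.0731 at 0.5 ng. Yam1 was an exception in spread, with levels of 1223 to 15126 CPM at 1 ng and 1092 to 10750 CPM at 0.5 ng. It was lowest in number 3 and highest in number 4 in both genotypes at both inputs. Its CV was 1.43 even at 50 ng. CT010467.1 and AY036118 overlap it on the other strand, so its counts are uncertain.

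Across 10648 genes tested, no gene was called between inputs in edgeR's quasi-likelihood test with genotype as a covariate (adjusted p under 0.05 and absolute log2 fold change above 1), that is, 0% higher and 0% lower at 0.5 ng. At an unadjusted p under 0.05 there were 571 genes. DESeq2, which was run as an alternative, called 7 genes higher and 14 lower of 11365. The median log2 fold change over all genes tested was -0.01 and the median absolute value 0.35. By the adjusted p-value alone, 1 gene passed (0.00939%).

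That gene was Cox4i1 (chr8:120668222-120674207, plus strand, GRCm38), which codes for subunit 4 of cytochrome c oxidase. Its levels at 1 ng were 3121, 2868, 3381 and 3072 CPM in WT and 2883, 2582, 3036 and 2574 CPM in GFAP-IL6. At 0.5 ng they were 2058, 2317, 2107 and 1819 CPM in WT and 1838, 1983, 1749 and 1952 CPM in GFAP-IL6. All 8 libraries at 0.5 ng lay below all 8 at 1 ng, and the reference level, 2552 CPM, lay between them. The log2 fold change was -0.56 ± 0.08 (SE), with an adjusted p of 0.000392 (edgeR), and between -0.59 and -0.54 when each library was left out in turn. Gm20388 overlaps it on the same strand and Emc8 on the other, and the counts may be shared with them.

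The next genes by p did not pass. Flywch1, a zinc finger gene, was at 207.4 to 327.7 CPM (median 254.6) at 1 ng and 74.0 to 267.8 CPM (median 100.6) at 0.5 ng. Its 0.5 ng levels were below the whole 1 ng range in 7 libraries, the exception being GFAP-IL6 number 2 with 267.8 CPM. The log2 fold change was -1.12 ± 0.22 (adjusted p = 0.106, edgeR), and without that library it became -1.30 with an adjusted p of 0.00254, the only fit without a library in which a gene was called; over all alternatives its adjusted p ran from 0.00254 to 0.25. Gm1673 was lower in 8 of 8 pairs, with a median of 269.4 CPM at 1 ng and 139.6 CPM at 0.5 ng (log2 fold change -0.89 ± 0.19, adjusted p = 0.106).

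Pan2, the catalytic subunit of a deadenylase that trims poly(A) tails, had 5, 0, 21 and 3 counts in WT and 13, 26, 5 and 28 counts in GFAP-IL6 at 1 ng. At 0.5 ng it had 1 count in GFAP-IL6 number 1 and 0 in the other 7 libraries. Its reference level was 5.40 CPM, and its adjusted p was 0.106 (edgeR). Under DESeq2 adjusted p was 0.00507 for Flywch1, 0.00752 for Gm1673, 0.00167 for Pan2 and 0.000215 for Tbata, which is described next; with no filter on low counts it was 0.00289 for Flywch1, 0.046 for Pan2 and 0.0282 for Tbata (edgeR).

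Some genes were found or missed as a set of 8. Of genes with 0 counts in all 8 libraries at 0.5 ng, 1710 had counts in at least 1 library at 1 ng, 403 of them at or above 1 CPM in the reference. The reverse held for 785 genes, 81 of them at or above 1 CPM. Most were seen in few libraries: 1036 of the 1710 and 617 of the 785 in a single library. Only 4 of the 1710 and 1 of the 785 were found in at least 7 libraries of the other input; Ptges3l, Gm37885 and Tbata were taken from these after their values had been seen.

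Lhfpl5, which codes for a protein of the mechanotransduction complex of hair cells, was the most even of them (chr17:28575641-28585679, plus strand). It had 17, 3, 16 and 16 counts in WT and 15, 2, 4 and 26 counts in GFAP-IL6 at 1 ng, and 0 counts in all 8 libraries at 0.5 ng. Its reference level was 6.63 CPM. Taking 3 counts over the 8 libraries as the floor at 0.5 ng (0.248 CPM), its pooled level at 1 ng was 33.7-fold that floor. The floor takes every count as independent, whereas the computed number of independent counts was 7.53% to 22.3% of the counts per library at 0.5 ng. The fold is therefore not a lower bound, and the gene was chosen for its zeros. Ptges3l (chr11:101418812-101425333, minus strand) had 14, 3, 2 and 21 counts in WT and 2, 3, 12 and 8 in GFAP-IL6 at 1 ng and none at 0.5 ng. Its pooled level at 1 ng was 22.1-fold the same floor, with the same limit. Zfp882 and the antisense gene Gm37885 were found in 7 of 8 libraries at 1 ng and in none at 0.5 ng. Ptges3l and Zfp882 share their strand with overlapping gene models (Gm27029 and Zfp617), and Gm37885 lies opposite Capn2, so their counts are uncertain.

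Tbata, named for its expression in thymus, brain and testis, showed the reverse (chr10:61171954-61188841, plus strand). It had 0 counts in all 8 libraries at 1 ng and 17, 3, 21 and 9 counts in WT and 2, 6, 43 and 46 counts in GFAP-IL6 at 0.5 ng. Its pooled level at 0.5 ng was 48.0-fold the floor of 3 counts over the 8 libraries at 1 ng, which is no lower bound for the same reason. The reference level of Tbata was 2.22 CPM. Neither Tbata nor Lhfpl5 passed adjustment (adjusted p = 0.106 and 0.124, edgeR).

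Among the 10 genes of highest level that were at 0 throughout at 0.5 ng, the others were patchy at 1 ng. Acvr2b, an activin receptor gene with the highest reference level of them (6.99 CPM), had 5, 0, 18 and 2 counts in WT and 1, 0, 0 and 28 in GFAP-IL6. Fbxo30, a ubiquitin ligase adaptor, had 60 counts in GFAP-IL6 number 4, 7 in WT numbers 2 and 3, and none elsewhere. Ebi3, a subunit of interleukin 27, was found in 5 libraries, Wdr78 and RP23-105M18.2 in 6, Gm14412 and the interferon-induced gene Ifi27l2a in 3, and Ghr, the growth hormone receptor, in 2. On the opposite side, with 0 counts throughout at 1 ng, Alms1 had 42 counts in a single library at 0.5 ng, Zfp128 38 counts and 2 counts in a pair of libraries, and Polm, a DNA polymerase gene, 36, 34 and 12 counts in 3 libraries. The remaining genes of that side were found in 1 library (Ovgp1, 4930522L14Rik), 2 (Ppic), 3 (4833422C13Rik, Slc7a7), 4 (Birc5) and 5 (Pde1c). Genes with exactly 1 count made up 6.20% ± 3.21 (SD, n = 8) of detected genes at 1 ng and 5.43% ± 1.95 at 0.5 ng (exact sign-flip permutation p = 0.211).

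**Figure D4:**
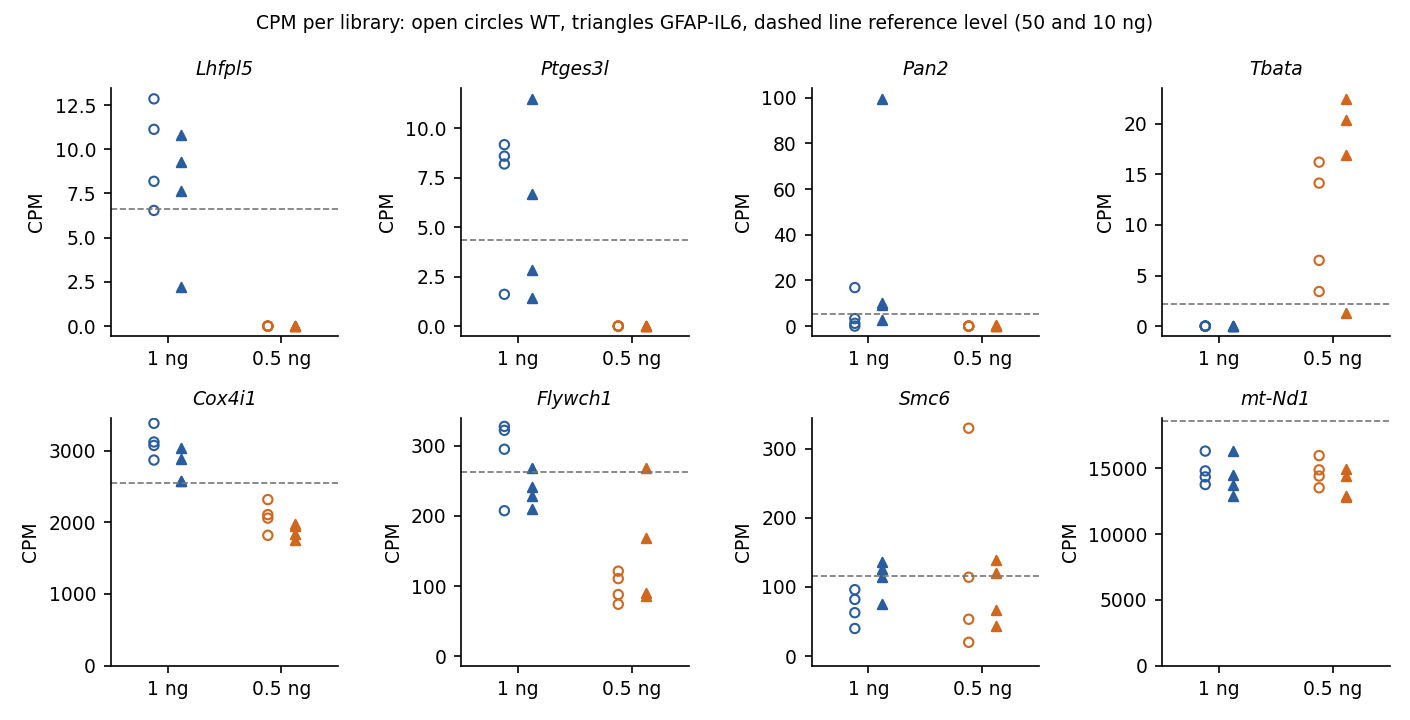
CPM per library (vertical axes) at 1 ng (blue) and 0.5 ng (orange) for 8 named genes, with open circles for WT, triangles for GFAP-IL6 and a dashed line at the mean of 50 and 10 ng. Lhfpl5 and Ptges3l are at 0 in all 0.5 ng libraries, Tbata in all 1 ng libraries; Cox4i1 is lower in all 0.5 ng libraries, Smc6 is more scattered and mt-Nd1 is level.

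Gene type and gene length made no detectable difference to dropout once level was taken into account. Within 5 to 50 CPM, with the 3 level classes weighted equally, the share of genes at 0 rose by 11.3 percentage points for 6736 protein coding genes (10.6% to 21.96%), by 12.4 points for 99 lincRNA genes (11.6% to 24.0%) and by 12.7 points for 59 antisense genes (12.6% to 25.3%), each in 8 of 8 pairs (adjusted p = 0.0113, exact sign-flip permutation test adjusted over 13 comparisons). Without pairing none of the 3 rises passed (adjusted p = 0.0727, exact permutation test). The rise for lincRNA genes exceeded that for protein coding genes by 1.07 ± 4.04 points (SD over pairs, range -3.82 to 7.17, adjusted p = 0.54). For antisense genes the excess was 1.39 ± 7.62 points (adjusted p = 0.63). With few noncoding genes in this range, a difference of several points was not detectable. The longest tertile of gene length rose by 10.7 points and the shortest by 11.5, a difference of -0.83 ± 1.74 points (range -3.68 to 1.58, adjusted p = 0.26).

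The base composition of the 3' end did go with dropout. GC content was taken over the last 300 bases of the longest transcript of each gene in GENCODE vM21, a property added after the data had been seen, and 99.8% of the 6925 genes from 5 to 50 CPM had a value. The tertile with the lowest GC content (median 32.7%) rose from 11.9% to 24.1% of genes at 0, and the tertile with the highest (median 51.0%) from 9.05% to 19.1%. The rise was smaller in the GC-rich tertile by 2.16 ± 1.34 points, in 7 of 8 pairs (adjusted p = 0.0203, exact sign-flip permutation test). This holds for percentage points only, since the tertiles began from unequal shares at 1 ng. Relative to its mean share at 1 ng, the rise was not smaller in the GC-rich tertile, and the relative rise was not tested. The share at 0 in the GC-rich tertile minus that in the GC-poor tertile was -2.83 points at 1 ng and -4.9955 points at 0.5 ng. Annotated transcript ends need not be the ends used in cortex.

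Hand-made gene lists were described beside all genes of the same level classes, with no test. Synaptic vesicle genes (14 genes, Snap25 the highest), astrocyte genes (12, Apoe the highest) and the 8 mitochondrially encoded mRNAs from 1 CPM were found in all 16 libraries. The 82 cytosolic ribosomal protein genes, the 12 chaperone genes and the 12 genes in common use as qPCR references had counts in every library at deposited depth. Their shares at 0 at equal totals were at most 0.163%. Of 37 proteasome genes, 37 were found in all 8 libraries at 1 ng and 34 at 0.5 ng. Their share at 0 went from 0% to 2.44%, against 1.56% and 3.26% for all genes of the same levels. Psmd10, an assembly chaperone of the regulatory particle, was at 55.5 CPM in the reference and had 0 counts in GFAP-IL6 numbers 1 and 2 at 0.5 ng. Psmb8 and Psmb9, the immunoproteasome subunits, were at 0 in 2 and 3 libraries at 0.5 ng.

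The 89 nuclear genes of oxidative phosphorylation had 2.95% at 0 at 1 ng and 4.02% at 0.5 ng, against 2.65% and 3.95% for all genes of the same levels. Of them Cox7b2 was found in 4 libraries at 1 ng and in none at 0.5 ng, Cox6b2 in 1 and 5, and Atp5sl in 8 and 6. None of the 83 tested was called, and the median absolute log2 fold change was 0.14, beside 0.35 over all genes, whose median level is far lower (19.3 against 419.0 CPM). The zinc finger genes with Zfp names, most of which code for transcription factors (301 genes, median 7.95 CPM), had the largest loss of the lists. Their share at 0 rose from 26.3% to 40.2% and was higher in 8 of 8 pairs. For all genes of the same levels it rose from 24.5% to 36.9%. Zfp605 had counts in 7 of 8 libraries at 1 ng and in 1 at 0.5 ng, with 2 counts there. Zfp623 had counts in 7 and in 1, with 21 counts there. In all, 88 of the 301 were found in all 8 libraries at 1 ng and 51 at 0.5 ng.

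Neuronal genes of high level were found throughout. Glutamatergic genes (12) had 11 members in all 8 libraries at both inputs. The exception was Grm5, a metabotropic glutamate receptor at 2.66 CPM. It had 11, 27 and 10 counts in 3 libraries at 1 ng and none at 0.5 ng. The share of the list at 0 went from 5.21% to 8.56%, near the 5.995% and 9.56% of all genes of the same levels. GABAergic and interneuron genes (14) had 5.36% at 0 at 1 ng and 5.40% at 0.5 ng, where all genes of the same levels went from 7.11% to 11.7%. Ion channel genes (15) had 0.833% and 0.242%, against 0.702% and 2.03% for all genes of the same levels. Immediate early genes (11) went from 6.87% to 15.1%, below the 11.1% and 18.0% of all genes of the same levels. Ier2 had 26, 8, 10 and 38 counts in WT and 9, 11, 32 and 36 in GFAP-IL6 at 1 ng. At 0.5 ng it had 0, 0, 1 and 10 counts in WT and 8, 0, 3 and 84 in GFAP-IL6. The 7 long noncoding RNAs went from 8.93% to 16.1%, near the 10.3% and 16.3% of all genes of the same levels. Malat1 and Meg3 were found throughout and Pvt1 in 6 libraries at 1 ng and 3 at 0.5 ng.

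Lists of other cell types differed in size and level. Microglial genes (14) had 13 members in all 8 libraries at 1 ng and 10 at 0.5 ng. Their share at 0 went from 1.79% to 3.64%, below the 3.25% and 7.49% of all genes of the same levels. P2ry12, the purinergic receptor that marks resting microglia, ranged from 15.4 to 85.8 CPM at 1 ng. At 0.5 ng it was at 3.33, 65.0, 50.9 and 65.4 CPM in WT and 12.8, 0, 100.8 and 43.3 CPM in GFAP-IL6. Oligodendrocyte lineage genes (16) went from 6.42% to 5.11% at 0, and endothelial genes (12) from 26.1% to 21.996%. All genes of the same levels went from 4.998% to 10.1% and from 24.0% to 33.1%. The tight junction gene Cldn5, at 2.7 CPM, was found in 5 libraries at 1 ng and in 8 at 0.5 ng. The markers of striatum, choroid plexus and blood went from 15.1% to 20.02% over 10 genes, and the 8 cortical markers were at 1.56% at both inputs. At deposited totals, 4 of 16 oligodendrocyte lineage genes changed in the number of libraries at 0 (1 more at 0.5 ng, 3 fewer), 4 of 14 microglial genes (3 more, 1 fewer) and 5 of 12 endothelial genes (2 more, 3 fewer).

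**Figure D5:**
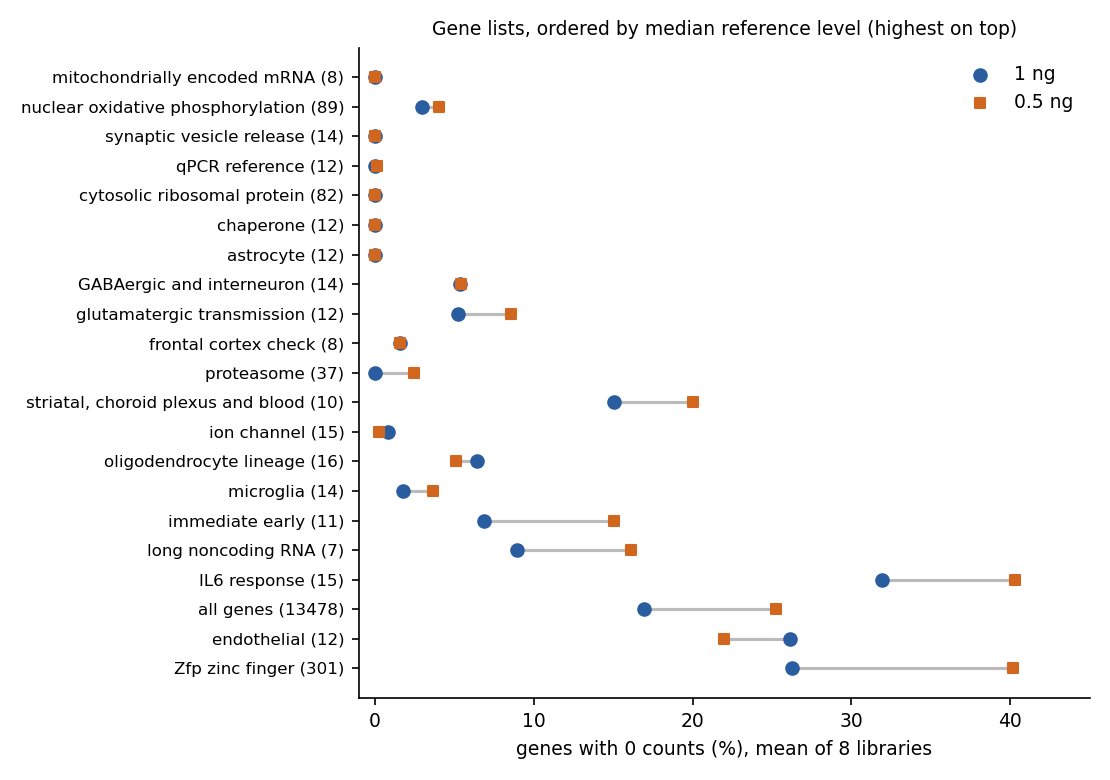
Percent of genes with 0 counts at the lower total of each pair (horizontal axis, mean of 8 libraries) for all genes and 20 gene lists, ordered by median reference level, with the number of genes from 1 CPM in brackets. Circles are 1 ng and squares 0.5 ng; most lists of high level sit at or near 0 at both inputs, and the Zfp genes moved from 26.3% to 40.2%.

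Some genes of the IL6 response list, with Ctss from the microglial list and Gfap, are given by genotype at both inputs. Il6 itself had 13 counts in WT number 3 and 27 and 10 counts in GFAP-IL6 numbers 1 and 4 at 1 ng, and 0 counts in all 8 libraries at 0.5 ng, so it did not separate the genotypes at either input. The protease gene Ctss, which belongs to the microglial list, was at 143.4 to 207.2 CPM in WT and 455.0 to 731.9 CPM in GFAP-IL6 at 1 ng. At 0.5 ng it was at 136.1 to 256.2 CPM and 559.4 to 993.1 CPM. The chemokine gene Ccl12 was at 5.24, 19.1, 16.1 and 3.68 CPM in WT and 84.3, 61.2, 173.9 and 131.8 CPM in GFAP-IL6 at 1 ng. At 0.5 ng it was at 15.8, 0, 18.5 and 6.08 CPM and at 149.3, 27.1, 121.7 and 95.5 CPM. The genotype ranges of Ctss and Ccl12 lay apart at both inputs, but how many of all genes do so was not counted. Those of Gfap, whose promoter drives the transgene, overlapped at both inputs. Gfap was at 8.175 to 22.5 CPM in WT and 11.8 to 76.5 CPM in GFAP-IL6 at 1 ng. At 0.5 ng it was at 2.17 to 30.8 CPM and 9.61 to 62.4 CPM. Osmr, a receptor subunit for oncostatin M at 2.6 CPM, had counts in 3 libraries at 1 ng and in 1 at 0.5 ng. The 15 genes of the list had 31.9% at 0 at 1 ng and 40.3% at 0.5 ng, above the 21.3% and 29.9% of all genes of the same levels, which were set on the mean of both genotypes.

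The genotype difference itself was compared between the inputs by an interaction term. None of 10648 genes passed (0%, smallest adjusted p = 0.32, edgeR quasi-likelihood test), with 467 at an unadjusted p under 0.05, and DESeq2 called 10 of 12505. Leaving out each library gave no call in 15 of 16 fits and 1 without GFAP-IL6 number 4 at 0.5 ng.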

How the data were processed

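Per the labels and the methods of the study, the authors demultiplexed single-end reads, trimmed poly(A) and used STAR 2.4 for alignment to mm10, after which featureCounts gave read counts over GENCODE vM6 genes. The submitters' notes also name the human build hg19, while all identifiers are mouse genes. The deposited values were raw counts, whole numbers for 33000 genes, with no molecular identifiers, so intervals and floors cover counting error only. Whether counting used the strand is not given in the sources used here. A floor of 3 counts was 1.07 to 11.5 CPM per library.

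Groups came from the genotype and input in the labels. Totals were equalised within pairs by the exact hypergeometric expectation (chances of 0 under 1e-06 were taken as 0), or, for spread, by seeded thinning. Paired tests were two-sided exact sign-flip permutation tests. Counts were tested with edgeR 4.0.16 in R 4.3.3 (TMM, filterByExpr), and DESeq2 1.42.0 was an alternative, as were other scalings, no filter, no thinning, another pseudocount, a replicate block and leave-outs. Tools were tested on simulated data. The exact tests ran in scipy 1.17.1 under Python 3.11.15, with pandas 2.3.3 for tables. Coordinates are from GENCODE vM21 (GRCm38). Replicate libraries within a group were compared with a chi-square of counts, which was at least 6.41 per degree of freedom. None was therefore the same library sequenced again. The check cannot tell whether libraries share a mouse or RNA.

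The comparison, gene lists and naming rule were chosen with earlier results of these data known. Named were list members (highest level, largest change in libraries at 0), the 5 smallest p where no call passed, the 10 genes of highest level at 0 throughout at either input, the 5 largest rises in CV from 100 CPM and the 10 highest genes. A few genes that this rule names are not reported here.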

Additional observations from a re-analysis of the deposited data

Results flagged for a closer look

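Of 60 checks for a library far from the other 3 of its group, 2 stood out, and chance alone would give about 1 in 20. Both concern Fth1, the ferritin heavy chain gene, in WT number 3. It was at 11998 CPM at 1 ng, where the other WT libraries lay between 8332 and 8769 CPM, and at 12522 CPM at 0.5 ng, where the others lay between 9111 and 9618 CPM. The same number carried the high Ttr level at both inputs. No paired difference between inputs, in detected genes, zero shares or spread, differed between genotypes (17 comparisons, smallest exact permutation p = 0.086, with 0.029 the smallest that 4 against 4 pairs can give).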

How the results depend on the processing

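The fall in detected genes kept its direction and stayed below 0.05 under every alternative run, from -1006 (all libraries at the lowest total) to -1308 (without WT number 2), and from -1308 to -1218 with each pair left out. Without the replicate block, at the totals of each pair, the differences in zero share no longer passed: 11.3, 15.5, 18.3, 11.6, 4.19 and 0.568 points in the 6 classes up to 100 CPM (adjusted p 0.11 to 0.17), 11.3, 12.4 and 12.7 points for protein coding, lincRNA and antisense genes (0.073), and a spread difference of 0.0548 from 1 to 2 CPM (0.12). With all libraries at the lowest total and no block, chosen after seeing the data, the 100 to 500 CPM class passed at 0.0385 points, and the spread difference from 1 to 2 CPM was 0.0123. For input calls the replicate block gave 0 higher and 1 lower (Flywch1, log2 fold change -1.19, adjusted p = 0.026), DESeq2 7 and 14, and no filter 2 and 2. Leave-outs gave 0 to 1 lower. For genotype by input, DESeq2 gave 10 calls, the replicate block 0 and leave-outs 0 to 1. The cause was not tested. Over all genes, deviations from group means correlated weakly between same-numbered libraries, at 0.0091 to 0.0393, against -0.0254 to 0.0054 for other numbers. Each of the 8 still correlated best with its own number, and single abundant genes such as Ttr and Yam1 followed the number at both inputs. The biological coefficient of variation was 0.540 to 0.555 at 1 ng and 0.807 to 0.833 at 0.5 ng with libraries left out, which also changes the genes kept. Depth limits the classes below 10 CPM in the libraries numbered 2, where 3 counts are 6.50 to 11.5 CPM.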

Other observations

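Levels of single abundant genes could follow the replicate number across both inputs. Ttr was at 3833 and 4030 counts in WT number 3 and at 29 to 220 counts in the other 14 libraries. Yam1 was at 1421 and 1141 CPM in WT number 3, 1223 and 1092 CPM in GFAP-IL6 number 3, 8112 and 7796 CPM in WT number 4 and 15126 and 10750 CPM in GFAP-IL6 number 4, at 1 and 0.5 ng. The mitochondrial ribosomal RNA mt-Rnr2 was also lowest in number 3 of both genotypes, at 41876 and 48761 CPM at 1 ng and 39644 and 46058 CPM at 0.5 ng.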
